A study of Mus musculus with 31 samples.

Results

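The transcripts described here are those of 10 genes of neutrophil granules and of calprotectin, out of 22609 gene symbols counted in 31 masseter muscle (MM) libraries. S100a8 and S100a9 encode the subunits of calprotectin, Mpo and Elane encode enzymes of the azurophil granule, Ngp, Camp, Ltf and Lcn2 encode proteins of the specific granule, Mmp8 encodes neutrophil collagenase, and Retnlg encodes a resistin-like protein of neutrophils. The genes were chosen by name, all 10 were found by symbol in each library, and Ibsp and Dmp1, which encode matrix proteins of bone, were read from the same libraries for comparison.

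Each library came from MM of an adult male C57BL/6J wild-type mouse, 2 to 4 months old per the study's methods. In the CFA experiment, 3 mice had received vehicle, and 3 mice each were collected at 1d and 5d after complete Freund's adjuvant (CFA), an oil with killed mycobacteria that provokes inflammation. In the collagenase type 2 (Col) experiment, 3 mice had received vehicle, 4 mice each formed the 0.2U groups labelled 1C and RPC, and 4, 3 and 4 mice received 10U and carry the labels 2d, 6d and 12d. The study's methods give 1d and 14d for the 10U groups labelled 2d and 12d, and the labels do not give the days of the 1C and RPC groups. RNA was made from dissected muscle, so that a lower count may reflect fewer cells of a type or less RNA per cell, which cannot be told apart in bulk RNA.

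Neutrophils build their granules in bone marrow, in a fixed order. Azurophil proteins are transcribed in promyelocytes, specific granule proteins in myelocytes and metamyelocytes, and gelatinase granule proteins later, whereas calprotectin is abundant in the cytosol of mature cells. Circulating neutrophils that enter inflamed tissue carry little transcript of the azurophil genes, so Elane and Mpo mRNA are mainly known from marrow.

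Values are CPM, which are counts relative to the library's total, scaled by TMM, a method that corrects library sizes for composition. The libraries held 14843778 to 29076671 counts on genes. Muscle markers were present throughout, with a summed CPM of 6 muscle genes between 29920 and 157360, and Acta1 and Ckm were high in all libraries. The libraries also held RNA of other tissues. The summed CPM of 9 bone genes ran from 5.19 to 372, that of 9 erythroid precursor genes from 0.859 to 332, and that of 11 salivary gland genes from 11.3 to 297861, although Smr2 was at 0 in all 31 libraries. These lists moved between mice of the same group, as drawn in the map of marker lists, and their part in the results was not tested. The 11 libraries of the 10U groups also had 0.675 to 0.875% of reads that were ambiguous between genes, against 0.147 to 0.317% in the other 20, so the 10U treatment and any difference in counting cannot be told apart.

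**Figure D1:**
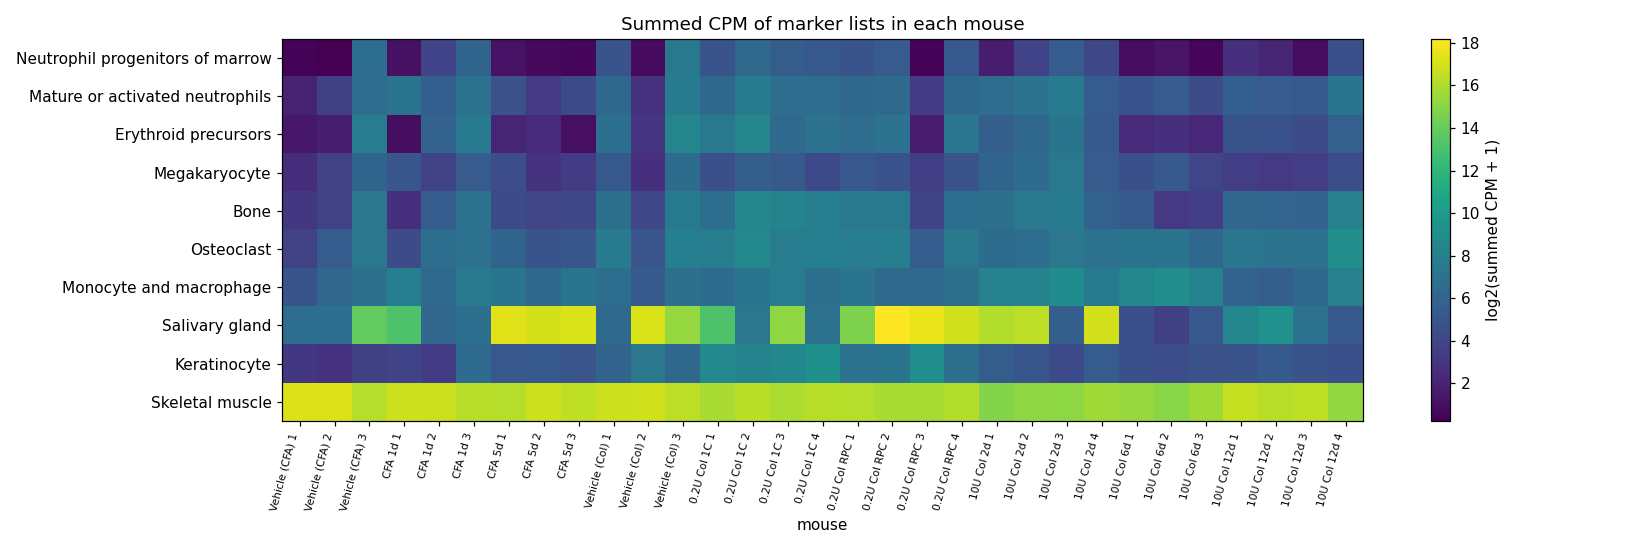
Summed CPM of 10 marker lists (rows) in each of 31 mice (columns, ordered by group), coloured by log2 of the sum plus 1. Bone, erythroid and marrow neutrophil progenitor lists were low in mice 1 and 2 of Vehicle (CFA), mouse 1 of CFA 1d and all 3 mice of CFA 5d. They were also low in mouse 2 of Vehicle (Col), mouse 3 of 0.2U Col RPC and mice 2 and 3 of 10U Col 6d. The progenitor list holds Elane and Mpo, which are also among the genes described here. The muscle list ran from 29920 to 157360 CPM.

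S100a8 and S100a9 were neighbours that shifted in ratio, and Ngp and Ltf, both on chromosome 9, came apart in some mice. The start regions of these 4 genes are therefore shown. Each is taken from RefSeq on GRCm38.p6 and covers 250 bases before to 50 bases after the start of the gene, 5′ to 3′ on its own strand. Capitals mark matches to the C/EBP motif TTNNGNAA on either strand (TTNCNNAA as read here), where C/EBP factors are regulators of granulocyte genes. The regions are chr3:90668821-90669120 (plus strand) for S100a8, chr3:90695672-90695971 (minus strand) for S100a9, chr9:110419558-110419857 (plus strand) for Ngp and chr9:111019042-111019341 (plus strand) for Ltf.
S100a8: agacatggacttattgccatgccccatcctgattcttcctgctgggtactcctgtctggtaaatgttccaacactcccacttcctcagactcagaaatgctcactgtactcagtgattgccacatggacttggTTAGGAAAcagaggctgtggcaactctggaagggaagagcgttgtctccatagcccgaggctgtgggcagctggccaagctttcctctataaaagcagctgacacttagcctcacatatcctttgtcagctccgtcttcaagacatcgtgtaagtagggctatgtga
S100a9: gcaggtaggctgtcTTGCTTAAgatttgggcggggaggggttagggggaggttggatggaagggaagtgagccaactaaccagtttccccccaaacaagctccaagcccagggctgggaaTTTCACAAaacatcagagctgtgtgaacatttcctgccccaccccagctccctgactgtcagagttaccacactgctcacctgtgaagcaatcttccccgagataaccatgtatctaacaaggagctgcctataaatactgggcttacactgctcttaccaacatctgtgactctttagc
Ngp: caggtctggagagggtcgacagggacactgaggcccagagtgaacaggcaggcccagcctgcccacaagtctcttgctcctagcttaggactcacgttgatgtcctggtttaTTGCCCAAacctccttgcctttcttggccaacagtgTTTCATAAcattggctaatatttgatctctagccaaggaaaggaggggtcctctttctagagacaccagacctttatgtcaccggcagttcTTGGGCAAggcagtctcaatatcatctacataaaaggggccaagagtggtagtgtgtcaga
Ltf: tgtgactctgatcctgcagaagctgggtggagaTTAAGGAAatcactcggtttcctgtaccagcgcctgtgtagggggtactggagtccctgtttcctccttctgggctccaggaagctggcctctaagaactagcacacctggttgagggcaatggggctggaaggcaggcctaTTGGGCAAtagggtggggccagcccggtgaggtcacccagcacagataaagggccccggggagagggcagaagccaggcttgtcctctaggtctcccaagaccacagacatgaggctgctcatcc
The window of S100a8 held 1 match, that of S100a9 2, that of Ngp 3 and that of Ltf 2. With both strands read, 7 of the 10 genes held a match, and 40.7% of 32851 promoter windows of that length held one. The PU.1 motif AGGAAGT, read on both strands, was in the windows of 4 of the 10 genes and in 9.35% of all windows, and it overlapped no C/EBP match in these genes. All 10 genes were found in the RefSeq table.

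On mm9, the build of the counts, S100a8 (chr3:90472993-90473956) and S100a9 (chr3:90496554-90499643) were 22598 bp apart on opposite strands. Camp, Ngp and Ltf lay within 1195 kb of chromosome 9, between positions 109749889 and 110945270. None of the 10 genes overlapped another gene except Mpo, which overlapped Gm11505 on the opposite strand, and 50-base stretches shared with other genes made up 0.217% of Mpo and none of the other 9.

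Across all 31 mice, transcript levels per length differed widely between the genes. Median CPM per kilobase of exon (RPKM) were 74.7 for S100a9 and 59.5 for S100a8. Among the specific granule genes the median RPKM was 20.7 for Camp, 14.3 for Ngp, 9.73 for Ltf and 2.93 for Lcn2, and Retnlg had 4.65. Elane, Mpo and Mmp8 were lowest, with 2.27, 1.64 and 0.683 RPKM. The spread over mice was wider than these steps, since S100a8 ran from 0.261 to 274 CPM and Ngp from 0 to 456 CPM, so no neighbours in this order stood apart beyond their spread.

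Vehicle-treated mice differed widely from each other. S100a8 was 0.404, 0.775 and 155 CPM in the vehicle-treated mice 1 to 3 of the CFA experiment, and 74.7, 1.80 and 240 CPM in those of the Col experiment. The highest vehicle value was thus 383-fold and 134-fold above the lowest in its group. Ngp, a cathelicidin-like protein of specific granules, was 0.363, 0.638 and 167 CPM in the first group and 71.7, 1.73 and 456 CPM in the second. Elane, the neutrophil elastase, was 0.0404, 0 and 16.9 CPM in the first and 3.79, 0.133 and 31.7 CPM in the second. The mice with high granule transcripts were those with high bone transcripts: Ibsp was 0.0807, 1.69 and 52.0 CPM in the vehicle mice of CFA and 39.6, 0.133 and 93.2 CPM in those of the Col experiment. Between the vehicle groups, 0 of 10 genes passed edgeR's quasi-likelihood test with Benjamini-Hochberg adjustment (adjusted p under 0.05), 0 had an unadjusted p under 0.05 and DESeq2 called 0, where edgeR called 0% of 14070 genes higher and 0.0426% lower and 2.32% had an unadjusted p under 0.05.

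**Figure D2:**
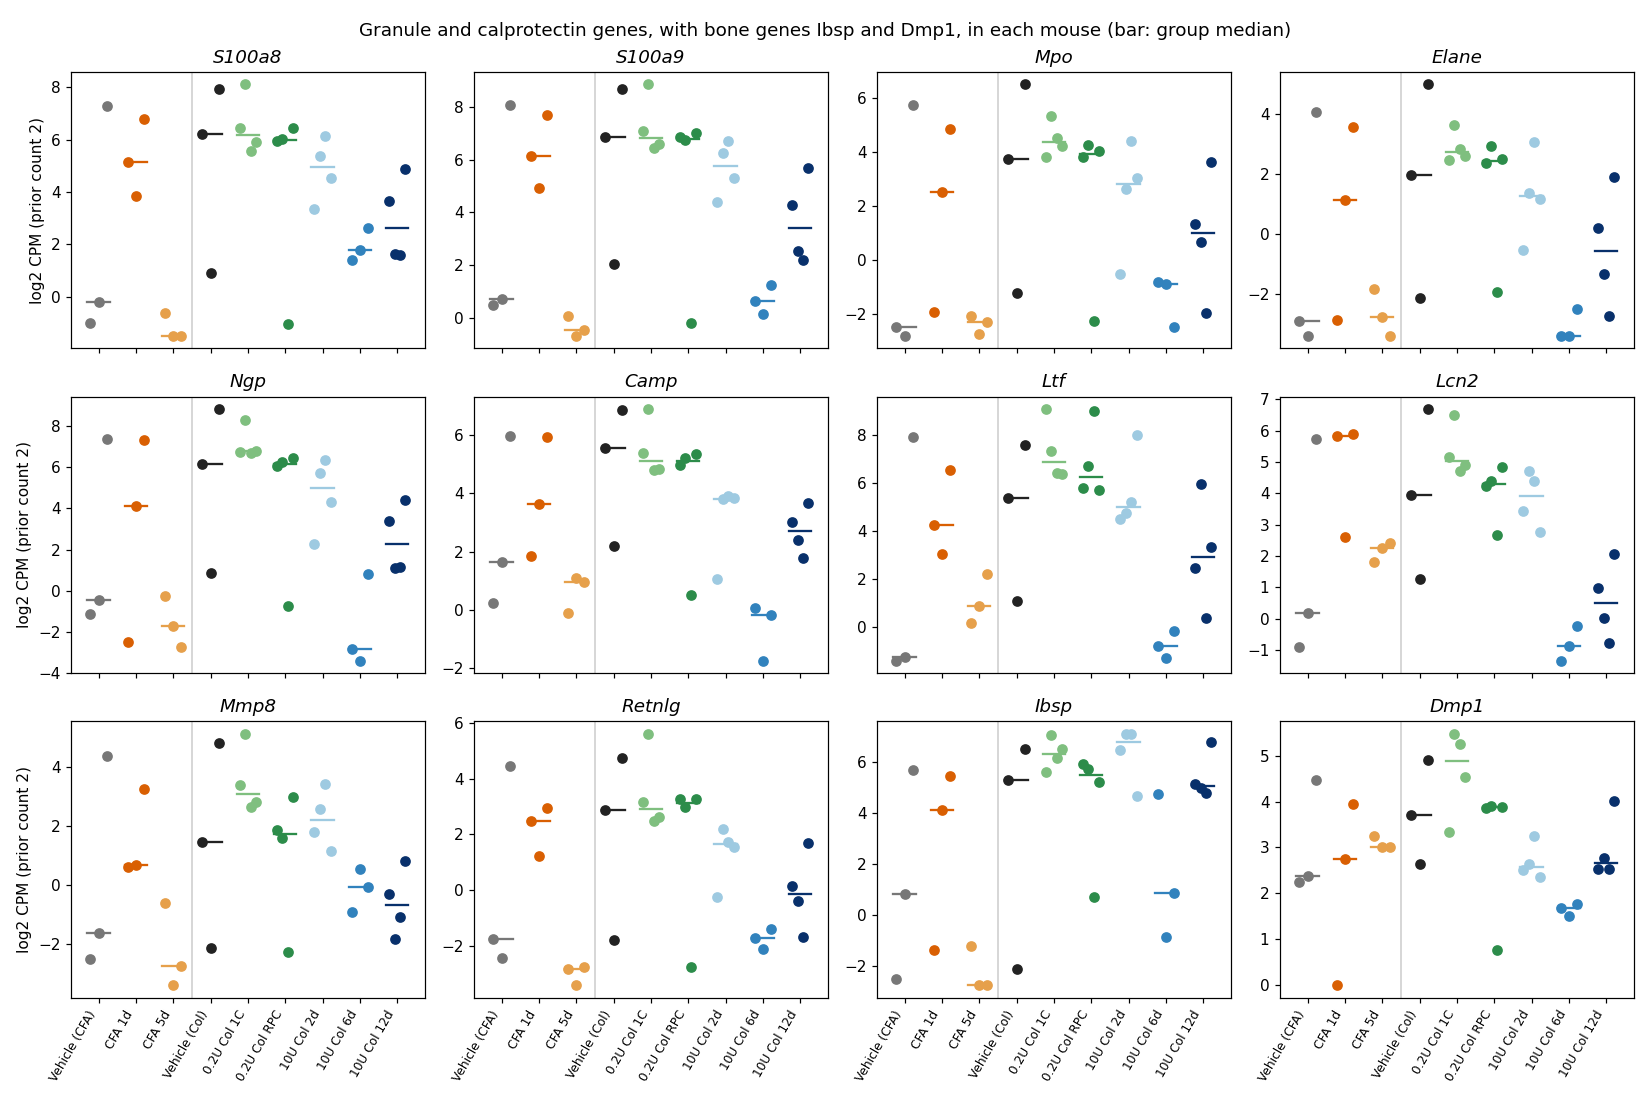
The log2 CPM (prior count 2) of the 10 genes and of Ibsp and Dmp1, 1 panel per gene, with 1 point per mouse, groups along the horizontal axis and a bar at each group's median. In both vehicle groups the points of a gene lay far apart, and at 10U Col 6d the 3 points of all 10 genes lay below all 4 points at 10U Col 2d.

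The same pattern of mice recurred for Ibsp across the study. Ibsp was 0.0521 to 1.74 CPM in 10 mice and 17.2 to 140 CPM in the other 21, with none between. The 10 mice were mice 1 and 2 of Vehicle (CFA), mouse 1 of CFA 1d, all 3 of CFA 5d, mouse 2 of Vehicle (Col), mouse 3 of 0.2U Col RPC and mice 2 and 3 of 10U Col 6d. Elane was at most 0.187 CPM and Mpo, the myeloperoxidase, at most 0.445 CPM in these 10 mice, whereas their medians in the other 21 were 5.07 and 14 CPM. Because the mice fell into separate sets, which were defined after seeing the data, no correlation with Ibsp over all 31 is given. Among the 21 mice, Pearson's r of log2 CPM with Ibsp ran from 0.319 (Ltf) to 0.616 (Mmp8), and Spearman's rho from 0.187 to 0.634. In permutation tests of 100000 resamples, two-sided and adjusted over 10 genes, r passed for 7 genes (all but Camp, Ltf and Mpo) and rho for 5 (Ngp, Lcn2, Mpo, Elane and Mmp8). These 21 mice came from 8 groups, and the permutations took no account of treatment. With each group's mean subtracted, over the 19 mice in 6 groups with more than 1 such mouse, r was -0.073 for Ltf, 0.425 for Camp and 0.542 to 0.797 for the other 8 genes, as a description with no test. Without the 2 mice farthest from the median, r ran from 0.287 to 0.605 over 19 mice. Among the 10 mice with low Ibsp, r ran from -0.191 to 0.429 and none passed for r or rho (adjusted permutation p from 0.886 to 0.926 for r).

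Against this background 3 mice stood apart. Mouse 1 of CFA 1d had 0.286 CPM of Ibsp, yet 35.2 CPM of S100a8, where the next highest among the 10 mice with low Ibsp had 6.10. It also had 69.7 CPM of S100a9, 56.9 CPM of Lcn2 and 5.44 CPM of Retnlg. Of the other specific granule genes, Ltf was at 18.9 CPM and Camp at 3.56 CPM, each the second highest of the 10 mice, whereas Ngp was at 0.0818 CPM. The azurophil genes Mpo and Elane were at 0.164 and 0.0409 CPM. Salivary gland genes summed to 9320 CPM in this mouse, against 72.3 and 107 CPM in mice 2 and 3 of CFA 1d. Monocyte and macrophage genes summed to 251 CPM, against 87.6 and 178 CPM. The part of either in these values was not tested. Receptors of mature neutrophils were present in mouse 1 of CFA 1d, with 14.7 CPM of Csf3r, the receptor for G-CSF, and 3.97 CPM of Cxcr2, a chemokine receptor. The cytokine Il1b was at 52.2 CPM. The reverse held for mouse 1 of 10U Col 6d, which had 26.9 CPM of Ibsp but 0.0430 CPM of Ngp and 0 of Elane, while the other 20 mice with high Ibsp had at least 2.08 CPM of Ngp. In mouse 3 of 0.2U Col RPC, Ltf stood at 513 CPM beside 0.499 CPM of Ngp.

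**Figure D3:**
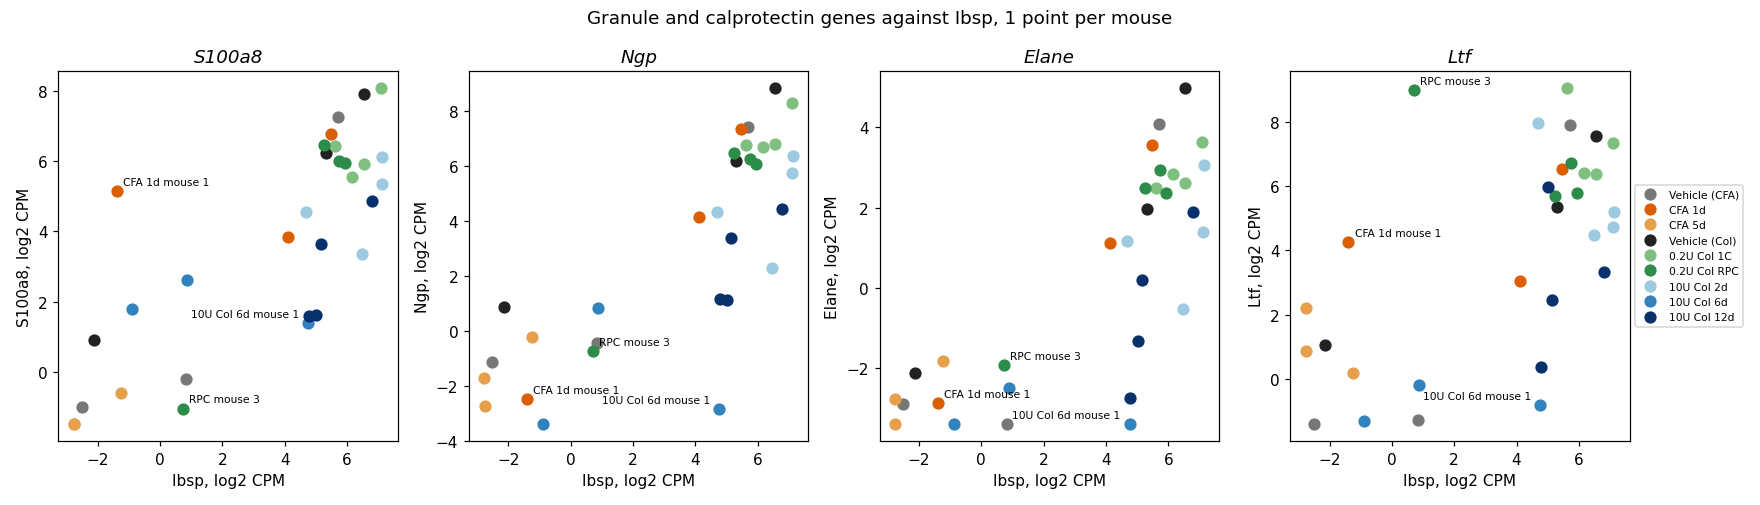
The log2 CPM of S100a8, Ngp, Elane and Ltf (vertical) against that of Ibsp (horizontal), 1 point per mouse, coloured by group. Mouse 1 of CFA 1d lay high for S100a8 at low Ibsp, mouse 1 of 10U Col 6d lay low for Ngp and Elane at high Ibsp, and mouse 3 of 0.2U Col RPC lay high for Ltf alone.

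At 1d post-CFA, no granule or calprotectin gene differed from vehicle beyond the spread between mice. S100a8 was 35.2, 14.2 and 109 CPM in mice 1 to 3, and S100a9 was 69.7, 30.3 and 205 CPM. Ngp was 0.0818, 17.4 and 160 CPM and Elane was 0.0409, 2.09 and 11.7 CPM. All 3 mice at 1d were above vehicle-treated mice 1 and 2 and below vehicle-treated mouse 3 for both calprotectin genes, while mouse 1 was as low as those 2 mice for Ngp and Elane. edgeR called 0 of 10 genes, 0 had an unadjusted p under 0.05, DESeq2 called 0 (with no adjusted p for Ltf and Mmp8), and edgeR called 0% of 13944 genes in either direction, with 4.22% at an unadjusted p under 0.05. The log2 fold changes of the 10 genes ran from -1.03 to 1.11 with SEs of 1.47 to 2.24.

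A list of 52 further neutrophil genes, of receptors, granule proteins and regulators, gave no call at 1d post-CFA either, with 43 tested and 7 at an unadjusted p under 0.05, and its median log2 fold change was 0.69, where that of all genes was -0.01. The smallest p-values upward were those of Serpinb1a, an inhibitor of elastase, Il1b, and Clec4e, a receptor for mycobacterial glycolipid (adjusted p = 0.924 in edgeR for all 3). Il1b was 52.2, 0.889 and 18.6 CPM at 1d and 0.323, 0.365 and 1.69 CPM with vehicle, so its groups overlapped in mouse 2. The summed CPM of 9 genes of mature or activated neutrophils was 48.8 to 141 at 1d and 3.07 to 101 with vehicle. This list holds Mmp9, which correlated with Ibsp among the 21 mice with high Ibsp (r = 0.759). The sum of 7 genes of marrow neutrophil progenitors was 1.10 to 64.9 at 1d and 0.182 to 105 with vehicle. That list holds Elane and Mpo, so it partly reads the same values again.

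At 5d post-CFA all 10 genes were low in all 3 mice, and calprotectin fell from 1d. S100a8 was 0.562, 0.261 and 0.264 CPM and S100a9 was 0.937, 0.521 and 0.634 CPM in mice 1 to 3. S100a8 fell from 52.9 ± 49.9 CPM (SD, n = 3) at 1d to 0.362 ± 0.173 CPM at 5d, a log2 fold change of -7.12 (SE 0.93, edgeR adjusted p = 0.00621). S100a9 fell from 102 ± 91.4 to 0.697 ± 0.215 CPM, a log2 fold change of -7.14 (SE 0.85, adjusted p = 0.00450). Retnlg was 5.44, 2.27 and 7.59 CPM at 1d and no more than 3 counts in any mouse at 5d, at least 33.6-fold lower (adjusted p = 0.00388). It was tested only because of its counts at 1d, so its call could only be lower.

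S100a8, S100a9 and Retnlg were the 3 of 8 tested genes called between 5d and 1d post-CFA, where 0.99% of 14046 genes were called lower and 4.85% higher. The groups did not overlap for 7 of the 8 tested genes, against 12.1% of all tested genes lower without overlap, and Ngp was the exception because of mouse 1 at 1d. Ngp was 0.749, 0.209 and 0.0529 CPM at 5d, with a log2 fold change of -7.38 (SE 2.13, adjusted p = 0.102). Lcn2, the siderophore-binding lipocalin, was 3.37, 4.64 and 5.23 CPM at 5d against 56.9, 6.00 and 59.7 CPM at 1d, and Ltf was 1.03, 1.72 and 4.49 CPM. Both missed the threshold (adjusted p = 0.0551 and 0.0637), and so did Camp and Mmp8. Mpo and Elane had too few counts to be tested, and Mpo was at least 76.4-fold lower at 5d than at 1d. That bound rested on mouse 3 at 1d, since Mpo was 0.164 and 5.60 CPM in mice 1 and 2 and the bound without mouse 3 was 19.0-fold. Ibsp, which was not tested, was 0.328, 0.0521 and 0.0529 CPM at 5d against 0.286, 17.2 and 44.1 CPM at 1d, and Dmp1 was 8.42 ± 0.858 against 7.58 ± 7.23 CPM (log2 fold change 0.17, SE 0.78). Without mouse 2 at 1d the count of called genes was 6, without mouse 1 it was 5 and without mouse 3 it was 2, while DESeq2 called 7 genes and the fit with the replicate number as a block 5.

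Of all tested genes, 0.99% were called lower and 4.85% higher between 1d and 5d post-CFA. In the wider list 5 of 38 tested genes fell and 1 rose, with a median log2 fold change of -1.42. Those that fell were Cebpd, a transcription factor of acute inflammation, Chi3l3, a chitinase-like protein of myeloid cells, Cxcr2, Lrg1, a secreted glycoprotein, and Cd177, a surface protein of neutrophils. Cxcr2 fell from 2.94 ± 1.82 to 0.0642 ± 0.0710 CPM (log2 fold change -5.31, SE 0.92, edgeR adjusted p = 0.0172), and Cebpd fell from 51.3 ± 24.3 to 9.61 ± 1.2 CPM (log2 fold change -2.37, SE 0.31, adjusted p = 0.00595). Cxcr2 had 3 counts or fewer in each mouse at 5d. It was tested only because of its counts at 1d, so its call could only be lower. G0s2, a lipolysis inhibitor also abundant in fat, rose from 17.3 ± 1.92 to 40.9 ± 13.6 CPM (adjusted p = 0.0296). Salivary gland transcripts moved the other way from calprotectin, with a summed CPM of 132666 to 168199 at 5d and 72.3 to 9320 at 1d, and their part in these values was not tested.

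Against vehicle, 0 of the 6 tested genes was called at 5d post-CFA, where edgeR called 1.06% of 14026 genes higher and 0.0428% lower. An unadjusted p under 0.05 was found for 4 of the 6 and for 14% of all tested genes, and DESeq2 gave none of the 6 an adjusted p. All 6 fitted log2 fold changes were below 0, from -7.32 to -2.05. Without vehicle-treated mouse 3 that of S100a8 was -0.59, and Lcn2 and Ltf were called higher at 5d, with log2 fold changes of 2.64 and 3.05 (edgeR adjusted p = 0.00377 and 0.0182). Lcn2 in the 2 remaining vehicle-treated mice was 0.444 and 1.05 CPM, below all 3 mice at 5d, and Ltf in them was 0.283 and 0.319 CPM. Salivary gland genes summed to 104 and 112 CPM in those 2 mice and to 132666 to 168199 CPM at 5d. Their part in the rise of Lcn2 and Ltf was not tested.

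After 0.2U Col both groups had high granule transcripts, as had 2 of their 3 vehicle-treated mice. In the 1C group S100a8 was 86.7, 274, 46.6 and 60.6 CPM and Ngp was 108, 312, 103 and 111 CPM. In the RPC group S100a8 was 61.4, 65.0, 0.388 and 87.7 CPM and Ngp was 66.3, 75.7, 0.499 and 87.9 CPM. All of these mice other than RPC mouse 3 lay above vehicle-treated mouse 2 for both genes, 1C mouse 2 was the highest for S100a8, and RPC mouse 3 lay below every vehicle-treated mouse. Ibsp was 48.7, 136, 71.2 and 92.9 CPM in the 1C group and 61.3, 53.6, 1.55 and 37.8 CPM in the RPC group. Within the 1C group mouse 2 was the highest for Ibsp, S100a8 and Ngp, and within the RPC group mouse 3 was the lowest for each. The other mice of each group stood in a different order for Ibsp than for S100a8.

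edgeR called 0 of 10 genes in either 0.2U group against vehicle, with 0 at an unadjusted p under 0.05, and DESeq2 called 0 in both (with no adjusted p for Mmp8 in the 1C group). It called 0% of 14493 genes in the 1C group and 0% of 14269 in the RPC group in either direction, and 12.6% and 13.5% of them had an unadjusted p under 0.05. Log2 fold changes ran from -0.62 to 1.48 in the 1C group and from -1.65 to 1.19 in the RPC group, with SEs of 0.92 to 1.57. In the wider list edgeR called 0 genes in either group, and 4 had an unadjusted p under 0.05 in each. Ccrl2, a chemokine-binding receptor, was among the 3 smallest p-values downward in both, at 9.91 ± 1.94 CPM (n = 4) in the 1C group and 9.94 ± 1.67 CPM in the RPC group against 19.7 ± 6.02 CPM with vehicle (adjusted p = 0.265 in each), and both comparisons used the same 3 vehicle-treated mice. Keratinocyte genes summed to 309 to 619 CPM in the 1C group and 61.9 to 166 CPM with vehicle, and their part in these values was not tested.

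At 2d post-Col (10U) both calprotectin genes and Ngp lay between the vehicle-treated mice. S100a8 was 10.1, 41.1, 70.1 and 23.3 CPM, S100a9 was 20.9, 75.2, 104 and 39.0 CPM, and Ngp was 4.69, 52.6, 82.3 and 19.6 CPM. Every one of these 12 values lay above vehicle-treated mouse 2 and below vehicle-treated mouse 3. Elane was 0.593, 2.51, 8.32 and 2.16 CPM, and Ltf, which encodes lactoferrin, was 22.4, 26.7, 36.6 and 250 CPM. The last of these was higher than in any vehicle-treated mouse. edgeR called 0 of 10 genes against vehicle and 1 had an unadjusted p under 0.05, where it called 1.14% of 14373 genes higher and 1.08% lower and 33.3% had an unadjusted p under 0.05. DESeq2 called 1, Camp, the cathelicidin precursor, which was 1.99, 13.8, 14.9 and 14.3 CPM against 47.2, 4.52 and 118 CPM with vehicle (log2 fold change -2.39, SE 0.97, edgeR adjusted p = 0.131). Camp in mouse 1 was thus below every vehicle-treated mouse.

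Bone genes and genes of mature neutrophils were read at 2d as well. Ibsp was 88.6, 138, 140 and 25.7 CPM, above the vehicle range in mice 2 and 3, and Dmp1 was 6.54 ± 1.98 CPM against 16.4 ± 12.3 CPM with vehicle. Csf3r was 26.6, 25.6, 41.2 and 3.30 CPM and Il1b was 7.49, 7.47, 13.1 and 0.863 CPM, whereas vehicle-treated mice had 3.66, 0.266 and 19.0 CPM of Csf3r and 0.349, 0.133 and 1.88 CPM of Il1b. Mice 1 to 3 were above all vehicle-treated mice for both genes and mouse 4 was not. Cxcr2 overlapped, at 0.353 to 12.4 CPM against 0.266 to 11.9 CPM with vehicle. The summed CPM of the 9 genes of mature or activated neutrophils overlapped too, at 42.8 to 212 against 5.92 to 197. The highest sum with vehicle, in mouse 3, came mostly from other genes of the list. Csf3r, Cxcr2 and Il1b were 19.0, 11.9 and 1.88 CPM in that mouse. The list holds Mmp9, and the part of Mmp9 in the sums was not tested. Of 45 tested genes of the wider list 1 was called, where 1.14% of 14373 genes were called higher and 1.08% lower. It was Cebpd, which rose to 61.6 ± 21.4 CPM from 17.6 ± 1.58 CPM (log2 fold change 1.77, SE 0.29, edgeR adjusted p = 0.0408). Clec4d, a C-type lectin of myeloid cells, was 15.2 ± 9.59 against 0.705 ± 0.807 CPM (adjusted p = 0.0540). The effect of CFA at 1d and that of 10U Col at 2d, each against its own vehicle, differed for 0 of 10 genes, with 0 at an unadjusted p under 0.05 and 0 called by DESeq2, where edgeR called 0.0406% of 14794 genes higher and 0.0541% lower and 6.83% had an unadjusted p under 0.05.

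By 6d post-Col (10U) all 10 genes had fallen from 2d, and the marrow-stage genes were nearly absent. S100a8 was 2.53, 3.35 and 6.10 CPM, S100a9 was 1.46, 0.993 and 2.28 CPM, and Ngp was 0.0430, 0 and 1.66 CPM in mice 1 to 3. Elane was 0, 0 and 0.0830 CPM, and Mpo was 0.473, 0.445 and 0.0830 CPM. For each of the 10 genes, all 3 mice at 6d were below all 4 mice at 2d, where 12.5% of genes were lower without overlap. edgeR called 10 of 10 genes lower at 6d than at 2d, where 4.05% of 14513 genes were called lower and 4.68% higher, and DESeq2 called 9 and gave Ltf no adjusted p. Elane and Retnlg had fewer than 10 counts in each mouse at 6d. They were tested only because of their counts at 2d, so their calls could only be lower.

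The fitted decreases between 2d and 6d ran from a log2 fold change of -2.61 to one of -7.32. S100a9 fell from 59.8 ± 37.3 CPM (n = 4) to 1.58 ± 0.652 CPM (n = 3), a log2 fold change of -5.23 (SE 0.67, edgeR adjusted p = 0.00648), and S100a8 from 36.2 ± 26.0 to 4.0 ± 1.87 CPM, a log2 fold change of -3.16 (SE 0.69, adjusted p = 0.0349). Lcn2 fell from 16.1 ± 8.91 to 0.497 ± 0.228 CPM, a log2 fold change of -4.97 (SE 0.62, adjusted p = 0.00590), and Ltf from 83.9 ± 111 to 0.523 ± 0.244 CPM, a log2 fold change of -7.32 (SE 1.26, adjusted p = 0.0170). The log2 fold changes of Ngp, Camp and Mpo were -6.13, -4.12 and -4.71, and those of Retnlg and Mmp8 were -3.69 and -2.61. Elane was at 3 counts or fewer in each mouse at 6d and was at least 28.6-fold lower than at 2d (adjusted p = 0.0268), a bound that was 14.8-fold without mouse 3 at 2d. Adjusted p-values of the 10 genes ran up to 0.0485, close to the threshold, and the count of called genes was 0 without mouse 2 at 6d, 2 without mouse 1 at 6d, 3 without mouse 3 at 6d and 3 without mouse 2 at 2d. Ibsp was 9.71 ± 14.9 against 97.9 ± 53.6 CPM (log2 fold change -3.32, SE 1.28, adjusted p = 0.147), and Dmp1 was 3.05 ± 0.292 against 6.54 ± 1.98 CPM (adjusted p = 0.0548). With the mean log2 CPM of Ibsp and Dmp1 as a covariate in a fit over all 31 libraries, Ltf was the 1 gene called, at a log2 fold change of -6.73 (adjusted p = 0.0352). In that fit the direction turned for S100a8 (log2 fold change 0.42, adjusted p = 0.848) and Mmp8 (1.01, adjusted p = 0.565), and the other 8 genes stayed below 0. Erythroid precursor genes summed to 4.02 to 5.51 CPM at 6d and 36.8 to 141 CPM at 2d, and salivary gland genes to 11.3 to 33.7 CPM and 49.5 to 124358 CPM, and their part in the decrease was not tested.

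**Figure D4:**
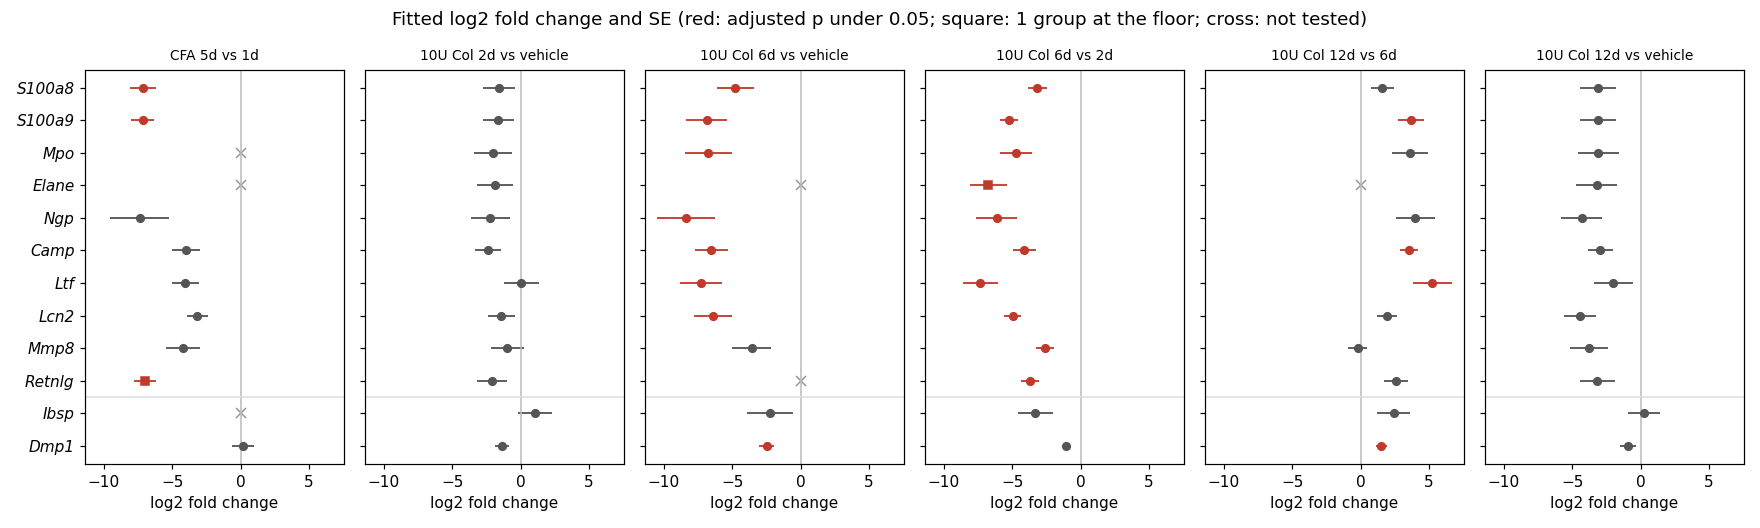
Fitted log2 fold change with its SE (horizontal) for the 10 genes, Ibsp and Dmp1 in 6 comparisons, with called genes in red, untested genes as a cross at 0, and squares for genes at 3 counts or fewer in all mice of 1 group, whose fitted size is no bound. All 10 genes were called lower at 10U Col 6d than at 2d, and 3 of them, S100a9, Camp and Ltf, were called higher at 12d than at 6d.

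Against vehicle, 7 of 8 tested genes were called lower at 6d post-Col (10U), where edgeR called 13.3% of 14281 genes lower and 14% higher, and DESeq2 called 7. They were both calprotectin genes, Ngp, Camp, Ltf, Lcn2 and Mpo. The log2 fold change was -6.52 for Camp (SE 1.22, edgeR adjusted p = 0.0119), -6.86 for S100a9 (SE 1.49, adjusted p = 0.0177) and -4.78 for S100a8 (SE 1.36, adjusted p = 0.0378). S100a8 in vehicle-treated mouse 2, at 1.80 CPM, was below all 3 mice at 6d, and Mpo and Mmp8 overlapped as well, so the groups stood apart for 5 of the 8 tested genes, against 21.2% of genes lower without overlap. Elane, which was not tested, was at least 100.2-fold lower, a bound that rested on vehicle-treated mouse 3 and was 16.5-fold without it. Mmp8 missed the threshold (log2 fold change -3.59, adjusted p = 0.0927). The count of called genes was 0 without mouse 1 or without mouse 2 at 6d and 1 without mouse 3. Dmp1 fell as well, from 16.4 ± 12.3 to 3.05 ± 0.292 CPM (log2 fold change -2.47, SE 0.55, adjusted p = 0.0190), and Ibsp was 44.3 ± 46.7 with vehicle and 9.71 ± 14.9 CPM at 6d (adjusted p = 0.339). The muscle list summed to 31972 to 51231 CPM at 6d and 84375 to 124127 CPM with vehicle, and its part in these values was not tested.

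The proportion of the calprotectin transcripts was different at 6d. S100a9 had 34, 29 and 55 counts there and S100a8 had 59, 98 and 147, so that S100a9 counts per S100a8 count were 0.576, 0.296 and 0.374. In the other 28 libraries this ratio was 1.47 to 3.20. The 3 libraries at 6d thus stood below all others, including the mice at 5d post-CFA, in which S100a8 was lower still and the ratio was 1.67 to 2.40. This ratio was looked at after the values were seen, and it was not tested. The summed CPM of 6 monocyte and macrophage genes was 302 to 532 at 6d, 205 to 491 at 2d and 38.8 to 114 with vehicle. At 2d the ratio of S100a9 to S100a8 counts was 1.49 to 2.07. Csf1r, the receptor of macrophage colony-stimulating factor, was 110, 179 and 101 CPM at 6d. It was 43.1 to 79.4 CPM at 2d and 21.4 to 55.4 CPM with vehicle. The part of these cells in the ratio was not tested.

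The wider list at 6d did not move in 1 direction. Of 36 tested genes 8 were called higher and 8 lower than with vehicle, where 14% of 14281 genes were called higher and 13.3% lower. The median log2 fold change of the list was -0.32, where that of all genes was 0.01. Lyz2, a lysozyme shared with macrophages, rose from 146 ± 102 to 1030 ± 358 CPM (log2 fold change 2.77, SE 0.60, edgeR adjusted p = 0.0175). Serpinb1a and Ctsc, a protease that activates granule enzymes, rose by 1.70 and 1.04 on the log2 scale. Pglyrp1, a peptidoglycan-binding granule protein, fell from 11.2 ± 8.10 to 0.654 ± 0.146 CPM (log2 fold change -4.12, SE 0.61, adjusted p = 0.00586). Ccrl2 and Lrg1 were next and fell by 1.63 and 0.93 on the log2 scale. Between 2d and 6d, 10 of 42 tested genes of the list were called lower, led by Pglyrp1, Chi3l3 and Lrg1, and 1 higher. Across all 14513 tested genes, 4.05% were called lower and 4.68% higher. The higher gene of the list was Cybb, the catalytic subunit of the phagocyte oxidase. Cybb rose from 20.6 ± 6.21 to 69.4 ± 23.2 CPM (log2 fold change 1.76, SE 0.30, edgeR adjusted p = 0.0164).

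**Figure D5:**
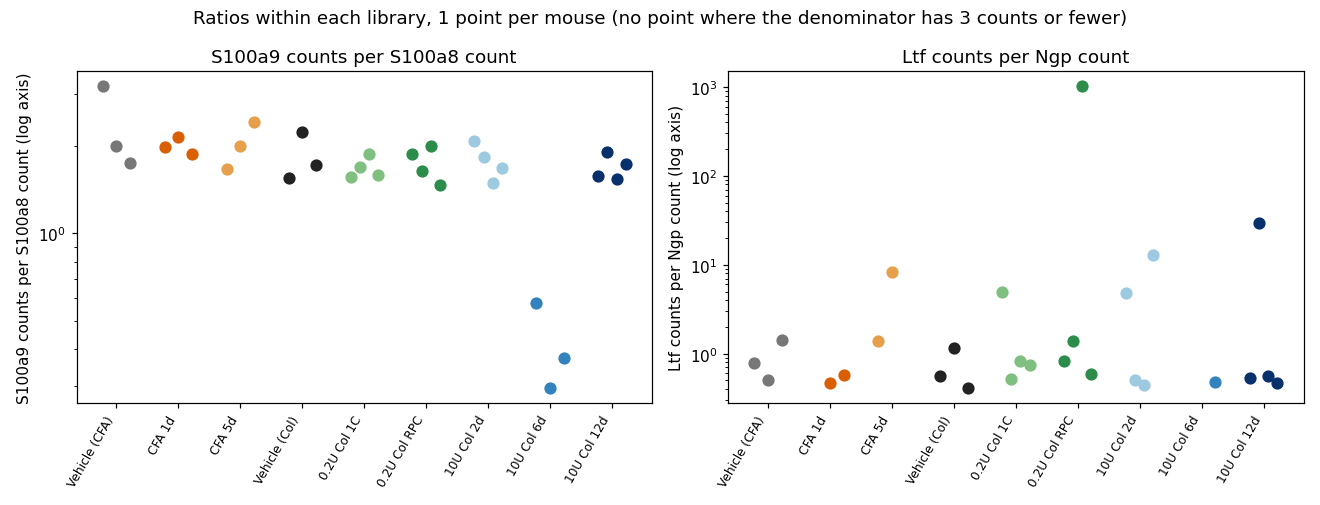
Counts of S100a9 per count of S100a8 (left) and of Ltf per count of Ngp (right) in each library on log axes, 1 point per mouse, without a point where the denominator had 3 counts or fewer. The 3 libraries of 10U Col 6d lay at 0.296 to 0.576 for S100a9 per S100a8, below the other 28 at 1.47 to 3.20, and mouse 3 of 0.2U Col RPC lay at 1027 for Ltf per Ngp.

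At 12d post-Col (10U), part of the set was higher than at 6d. S100a9 was 19.4, 5.69, 4.47 and 50.7 CPM, above all 3 mice at 6d, and rose with a log2 fold change of 3.68 (SE 0.94, edgeR adjusted p = 0.0291). Camp was 8.08, 5.14, 3.34 and 12.5 CPM against 0.945, 0.205 and 0.788 CPM at 6d, a log2 fold change of 3.52 (SE 0.63, adjusted p = 0.0144). Ltf was 5.44, 62.1, 1.19 and 10.0 CPM against 0.473, 0.308 and 0.788 CPM, a log2 fold change of 5.23 (SE 1.41, adjusted p = 0.0342). These 3 of 9 tested genes were called higher, where edgeR called 13.4% of 14344 genes higher and 13% lower, and DESeq2 called 6. The groups did not overlap for 4 of the 9, the 3 called genes and Ngp, against 17.6% of genes higher without overlap. Ngp was 10.3, 2.08, 2.10 and 21.2 CPM at 12d (adjusted p = 0.0685).

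S100a8 was 12.4, 3.0, 2.91 and 29.4 CPM at 12d and overlapped with 6d (log2 fold change 1.59, SE 0.84, adjusted p = 0.176). Mmp8 was 0.721, 0.183, 0.377 and 1.67 CPM against 0.430, 1.37 and 0.871 CPM, and it was the 1 gene whose log2 fold change was below 0, at -0.23 (SE 0.69). Mouse 4 had the highest level of 9 of the 10 genes at 12d, the exception being Ltf, and also the highest Ibsp (110 CPM) and Dmp1 (16.1 CPM). Dmp1 rose between 6d and 12d with a log2 fold change of 1.5 (SE 0.40, adjusted p = 0.0335), and Ibsp was 35.4, 32.2, 27.4 and 110 CPM at 12d, above all mice at 6d (adjusted p = 0.155). The count of called genes was 0 without mouse 2 at 6d, 1 without mouse 1 at 6d and 1 without mouse 1 at 12d, and in the fit over all 31 libraries it was 0. With the mean log2 CPM of Ibsp and Dmp1 as a covariate in that fit, none of S100a9, Camp and Ltf was called (log2 fold changes 0.41, 1.35 and 4.62), and 4 genes that had been above 0 turned below 0. These were S100a8 (-1.90), Ngp (-0.70), Mpo (-0.90) and Retnlg (-0.045), and Mmp8 was called lower (-3.60, adjusted p = 0.0236).

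Against vehicle, edgeR called 0 of 10 genes at 12d, although all 10 fitted log2 fold changes were below 0, from -4.43 for Lcn2 to -2.0 for Ltf, and 7 had an unadjusted p under 0.05. edgeR called 0.762% of 14176 genes higher and 0.466% lower there, and 17.4% had an unadjusted p under 0.05. Lcn2 was 1.88, 0.917, 0.485 and 4.12 CPM at 12d and 15.4, 2.33 and 103 CPM with vehicle, overlapping in mouse 4 (SE 1.19, adjusted p = 0.142), and it was the 1 gene that DESeq2 called. Ngp counts per Ibsp count were 0.0646 to 0.291 at 12d, 0.0530 to 0.762 at 2d and 0 to 0.952 at 6d. They were 1.81 and 4.89 in vehicle-treated mice 1 and 3, the 2 with more than 3 counts of Ibsp. All 10U libraries thus lay below these 2 mice, and the difference was not tested. Ratios below 1.81 were also found outside the 10U groups. The ratio ran from 1.199 to 2.29 in the 1C group, from 0.321 to 2.33 in the RPC group and from 0.286 to 3.62 at 1d post-CFA. It was 0.378 and 3.22 in vehicle-treated mice 2 and 3 of the CFA experiment and 2.29 in mouse 1 at 5d post-CFA. The comparisons of 0.2U and 10U Col with vehicle all used the same 3 mice. In the wider list 1 of 38 tested genes was called, Pglyrp1, which was 0.991 ± 0.577 against 11.2 ± 8.10 CPM (log2 fold change -3.47, SE 0.62, adjusted p = 0.0428). Between 6d and 12d, where 13.4% of all tested genes were called higher and 13% lower, 3 of 33 were called higher, G0s2, Mmp9 and Ccrl2, and 10 lower, led by Slc11a1, a metal transporter of phagosomes (log2 fold change -1.36, SE 0.19, adjusted p = 0.00899).

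Ltf was the gene least like the others among the 21 mice with high Ibsp. Its median Pearson's r of log2 CPM with the other 9 was 0.781 there, the lowest of the 10, where S100a9 had 0.964 and Mmp8, the next lowest, 0.875. As a description over 21 libraries of 8 groups that share depth and composition, the pairs most alike were S100a8 with S100a9 (r = 0.987), S100a9 with Ngp (r = 0.982) and Mpo with Elane (r = 0.975). Ltf counts per Ngp count were 1027 in mouse 3 of the RPC group, 29.9 in mouse 2 at 12d, 12.8 in mouse 4 at 2d, 8.25 in mouse 2 at 5d post-CFA and 4.95 in mouse 1 of the 1C group, while the median of the 27 libraries with over 3 counts of Ngp was 0.742. Ngp had 9, 34, 499, 4 and 1944 counts in these 5 mice, in the same order. The summed CPM of the 11 salivary gland genes was 205151, 634, 124358, 132666 and 9252 in them. High sums were also found beside lower ratios. RPC mouse 2 had 297861 CPM and a ratio of 1.38, and RPC mouse 4 had 123311 CPM and 0.590. Vehicle-treated mouse 2 of the Col experiment had 150720 CPM and 1.15. The part of salivary gland RNA in the ratio was not tested.

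The genes most like S100a8, Elane and Ltf in the 31 mice, outside the 10, are given as a description. These correlations span the mice with low and with high Ibsp, and among the 21 mice with high Ibsp alone r of the same genes was 0.935 to 0.980 with S100a8, 0.935 to 0.958 with Elane and 0.762 to 0.947 with Ltf. Among 15526 genes, those closest to S100a8 were Chi3l3 (r = 0.965), Nfe2, a transcription factor of erythroid and megakaryocytic cells (r = 0.948), Ctse (r = 0.933), Spna1, erythroid spectrin (r = 0.927), and Cd177 (r = 0.919). Closest to Elane were Itgb2l (r = 0.972), Ctsg, the azurophil protease cathepsin G (r = 0.970), Slfn14-ps (r = 0.964), Ms4a3 (r = 0.964) and Fcnb (r = 0.964). Closest to Ltf were Aqp9, a water and glycerol channel found in neutrophils (r = 0.925), Ankrd22 (r = 0.870), 1100001G20Rik (r = 0.847), Itga2b, the platelet integrin (r = 0.839), and Itgb2l (r = 0.808).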

How the data were processed

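RNA-seq of 31 MM libraries, 1 mouse each, was read from the deposited whole-number counts per gene symbol, which the authors made with bcl2fastq, TopHat2 and HTSeq on mm9 per the submitters' processing notes (versions not given in the sources used here). Reads counted as without feature or ambiguous were left out of library sizes, and 22609 symbols remained. The strand setting of the counting was not given in the sources used here.

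Libraries held 14843778 to 29076671 counts on genes. For each comparison of groups, genes that reached 10 counts in 3 or more of the fitted libraries were tested with edgeR 4.0.16 (R 4.3.3), by TMM scaling and the quasi-likelihood test with group as the only term, and p-values were adjusted by Benjamini-Hochberg over all tested genes. A gene was called at an adjusted p under 0.05. DESeq2 1.42.0 with its Wald test was the alternative tool. P-values measure the spread between the mice of these groups. CPM in the text are TMM-scaled, log2 CPM used a prior count of 2, and RPKM used exon lengths of GENCODE gene models on mm9. A gene with 3 counts or fewer in each mouse of a group was given a bound, at the mean of 3 counts per library over that group. Correlations with Ibsp used permutation tests of 100000 resamples. The planned correlation with Ibsp over all 31 mice is not given, because Ibsp fell into separate ranges, and the sets with low and high Ibsp were chosen after seeing the data. Python 3.11.15 with pandas 2.3.3, scipy 1.17.1 and matplotlib 3.10.9 was used for tables and figures, and the tests were checked on simulated counts.

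The 10 genes, the lists of further neutrophil genes and of cell type markers, and the tests were chosen with earlier results of these data known. Named were the 10 genes, Ibsp and Dmp1, up to 3 further neutrophil genes per comparison and direction with the smallest p-values and all called ones where these were 5 or fewer, the 5 genes most like S100a8, Ltf and Elane, and defining markers. Cxcr2, Csf3r, Il1b and Csf1r values were given for single mice as markers after the values were seen. Ly6g was not found by symbol. Mice carry replicate numbers in the labels. Deviations of same-numbered mice from their group means correlated above 0.1 for all 3 numbers between CFA 1d and vehicle (r = 0.16 to 0.59) and between the vehicle groups (r = 0.12 to 0.68), and not in the other comparisons, and blocking on the number left 0 genes called in both. Alternatives were DESeq2, its size factors, no filter, a replicate block, leaving out each mouse, a fit shared by all 31 libraries, that fit with the mean log2 CPM of Ibsp and Dmp1 as a covariate, and pooled vehicle mice.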

Additional observations from a re-analysis of the deposited data

Results flagged for a closer look

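In the 4 groups of 4 mice, 12 of 48 checks of a gene in a group found a mouse far from the other 3. There the gap to the nearest mouse divided by the range of the group exceeded the critical value. Chance gives this in about 1 of 20 independent checks. The checks read the same mice in genes that moved together, so 12 of 48 cannot be set against that share. Of the 12, 9 were mouse 3 of 0.2U Col RPC as the lowest of its group. The gap was 0.932 of the range for S100a8, 0.962 for S100a9, 0.944 for Ngp, 0.922 for Camp, 0.930 for Mpo, 0.883 for Elane, 0.951 for Retnlg, 0.867 for Ibsp and 0.984 for Dmp1. That mouse had 0.388 CPM of S100a8, where the other mice had 61.4 to 87.7, and 1.61 CPM of Dmp1, where they had 14.5 to 15.

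Mouse 2 of 0.2U Col 1C was the highest of its group for Ngp, with 312 CPM where the others had 103 to 111 (gap 0.929 of the range). Mouse 1 of 10U Col 2d was the lowest for Camp, with 1.99 CPM where the others had 13.8 to 14.9 (gap 0.960). Mouse 4 of 10U Col 12d was the highest for Dmp1, with 16.1 CPM where the others had 5.68 to 6.73 (gap 0.837).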

How the results depend on the processing

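Counts of the 10 genes called were 0 under every alternative run for CFA 1d against vehicle, both 0.2U groups against vehicle, the vehicle groups and the difference between the CFA 1d and 10U Col 2d effects. Leaving out 1 mouse at a time gave 0 to 2 called genes for CFA 5d against vehicle, 2 to 6 for CFA 5d against 1d, 0 to 8 for 10U Col 6d against vehicle, 0 to 10 for 6d against 2d and 0 to 3 for 12d against 6d. DESeq2 called 7 genes for CFA 5d against 1d, 1 for 10U Col 2d against vehicle, 1 for 12d against vehicle and 6 for 12d against 6d. The replicate block gave 5 calls for CFA 5d against 1d, 5 for 6d against vehicle, 8 for 6d against 2d and 4 for 12d against 6d, and 0 elsewhere. In these comparisons the mice share only a number. The fit shared by all 31 libraries called 3 genes for 6d against 2d, 0 for 12d against 6d and 1 for 12d against vehicle. With the bone covariate it called 1, 1 and 4 in these comparisons and 1 for 2d against vehicle. The cause of these shifts was not tested.

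Signs turned in few cases. For CFA 5d against vehicle, leaving out 1 mouse gave log2 fold changes of -5.88 to 3.05 for Ltf and -2.62 to 2.64 for Lcn2, above 0 only without vehicle-treated mouse 3, and Lcn2 became 0.71 with the replicate block and 0.57 with the bone covariate. With that covariate, Mmp8 became 0.49 for 6d against vehicle and 1.01 for 6d against 2d, S100a8 became 0.42 for 6d against 2d, and for 12d against 6d S100a8 became -1.90, Ngp -0.70, Mpo -0.90 and Retnlg -0.045. For 12d against 6d, leaving out 1 mouse gave -1.02 to 0.21 for Mmp8, above 0 without mouse 2 at 12d (0.077) or mouse 2 at 6d. Of correlations with Ibsp, those of Camp (r = -0.19), Lcn2 (r = -0.18) and Mpo (r = -0.14) were below 0 in the 10 mice with low Ibsp, where 0 of 10 passed. Elane, Retnlg and Mpo were at 3 counts or fewer in some groups, which limits the size of their decrease to a bound.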
